A study of Danio rerio with 12 samples.

Results

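The data describe 6 RNA-seq libraries made from testes of adult wild-type zebrafish. The tissue was incubated for 48 h with trilostane and without follicle-stimulating hormone (Fsh). They were chosen by their sample labels and make up 6 of the 12 libraries of the series. The other 6 also received Fsh and were not analysed here. Trilostane blocks 3-beta-hydroxysteroid dehydrogenase, an enzyme of steroid synthesis, so all 6 libraries share that block and the incubation, and no untreated or freshly dissected tissue was among the libraries used here. The submitters call the 6 libraries biological replicates, and the labels do not say whether a library came from 1 fish or from pooled tissue. The values below are levels and spreads in treated tissue, not effects of trilostane.

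In the fish testis, germ cells develop inside cysts formed by Sertoli cells, which hold receptors for Fsh and secrete growth factors such as Amh and Gsdf. Leydig cells lie between the tubules, make androgens and secrete the peptide Insl3. Spermatogonia divide and enter meiosis, when homologous chromosomes pair through the synaptonemal complex, and the haploid spermatids then build a tail around an axoneme driven by dynein motors. Germ cells of animals also hold granules in which Piwi proteins and their piRNAs silence transposons.

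The libraries held between 4695095 and 11497588 counts assigned to 33737 gene IDs, so the floor of 3 counts lay between 0.252 and 0.638 CPM (counts scaled to a common library size, which is the library total times its TMM factor). The shallowest was library 1. A count was found in every library for 22486 IDs and in no library for 4386. Means of at least 1 CPM were reached by 19908 IDs (59%), means of at least 10 CPM by 11806 (35%) and means of at least 100 CPM by 1875 (5.56%). In bulk tissue, fewer cells of a type and less RNA per cell cannot be told apart. CPM ranks order genes by their counts, and a long transcript gives more counts than a short one at the same number of molecules.

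The tissue label was checked against defining genes. The germ cell helicase gene DDX4 (vasa) had 432 ± 112 CPM (SD, n = 6), with a lowest value of 313, a median of 405 and a highest of 614 CPM. The oocyte transcription factor gene figla had no count in any library, and aromatase (CYP19A1), which makes estrogens, did not pass 0.168 CPM. The 3 zona pellucida genes zp2.1, zp2.3 and zp2.5 stayed at or under 0.35 CPM. Other oocyte list genes were low but present in every library, among them org (22.9 ± 5.74 CPM), npm2b (17.3 ± 2.25 CPM), ZAR1L (5.91 ± 1.22 CPM), zp3b (3.99 ± 1.70 CPM) and bmp15 (3.42 ± 1.07 CPM). Of the 17 IDs of the oocyte list, CCNB1 was the only member at or above 100 CPM, and it is also a mitotic cyclin of the cell cycle list.

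Library 3 differed from the other libraries in genes that the liver makes, and this is given before the results because several of them touch that library. The fatty acid binding protein gene fabp10a of liver cells had 102 CPM in library 3 and between 0.35 and 2.44 CPM in the others. Apolipoprotein gene apobb.1 had 553 CPM there and at most 56.0 CPM elsewhere, and the protease inhibitor gene serpina1 had 30.2 CPM there and at most 0.47 CPM elsewhere. Transferrin (tfa) was present in every library, with 108 to 638 CPM in the other 5 and 2358 CPM in library 3. For 16 liver genes, named after their values were seen, library 3 exceeded the highest of the other 5 libraries by 3.55-fold (c3a.1) to 64.2-fold (serpina1). The other 5 libraries were not equal in these genes. Apobb.1 had 56.0, 8.69 and 35.7 CPM in libraries 2, 5 and 6, against 1.28 and 0.699 CPM in libraries 1 and 4. Itln3 had 12.2, 5.24 and 13.4 CPM there, against 0.425 and 0.233 CPM. Others did not follow this division, such as tfa (lowest in library 6) and c3a.1 (98.9 CPM in library 1, 50.6 CPM in library 5). Muscle genes, exocrine pancreas genes other than prss1, and the vitellogenin genes of the same list did not share the high values of library 3. Ela2 lay between 2.82 and 9.25 CPM in all 6 libraries, and CPA1 (ENSDARG00000021339) was highest in library 2 at 9.17 CPM. The trypsin gene prss1 was highest in library 3 at 5.91 CPM, with 1.06 to 2.68 CPM in the other 5. Both muscle creatine kinase genes ckma and ckmb stayed at or under 0.503 CPM. The vitellogenin gene vtg3 was lowest in library 3 at 0.377 CPM, and vtg5 was highest in library 6 at 3.17 CPM. Vtg1 and vtg2 stayed at or under 0.638 CPM, near the floor. What part liver RNA has in the values of library 3 was not tested, and the spreads of several genes and list sums that this library touches are also given without it. Those values still include libraries 2, 5 and 6 with their lower levels of some liver genes.

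The counts were concentrated in a few genes. The most abundant ID, ENSDARG00000080337, for which the files used here give no symbol, held 12.6 ± 1.46% of the counts (SD, n = 6). The 10 genes with the highest mean CPM over the 6 libraries held 19.4 ± 1.78% of a library's counts, and the first 100 held 27.2 ± 1.97%. The next ranks were taken by rn7sl1, the RNA of the signal recognition particle (26905 ± 3829 CPM), by ENSDARG00000082753 and by rn7sk, the RNA that holds back a transcription elongation factor (6694 ± 1417 CPM). ENSDARG00000082753 was uneven, with 38058 CPM in library 1, 22926 CPM in library 3 and 6840 to 9868 CPM in the other 4. The 13 genes whose symbol marks them as mitochondrially encoded took 1.30 ± 0.0651% of the counts. IDs without a symbol, such as ENSDARG00000080337 and ENSDARG00000082753, could not enter this share, so it need not cover all mitochondrial RNA. The 70 ribosomal protein genes took 2.28 ± 0.287%, with the lowest share, 1.8%, in library 3.

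A sperm tail gene stood directly below these RNAs and the mitochondrial gene MT-CO1 (rank 5). The axonemal dynein heavy chain gene dnah5l was at rank 6 with 3909 ± 954 CPM (SD, n = 6), and its lowest, median and highest values were 2999, 3836 and 5555 CPM. Dynein heavy chain transcripts are long, and the rank is one of counts. Chaperone genes HSP90AB1 (2660 ± 230 CPM) and HSPA8 (ENSDARG00000068992, 2541 ± 345 CPM) followed at ranks 7 and 8. The synaptonemal complex gene SYCP1, whose protein links paired chromosomes, stood at rank 11 with 1777 ± 338 CPM. Hydin, which encodes a protein of the axoneme's central pair, was at rank 21, and PIWIL1, which encodes a Piwi protein, was at rank 23. ALDH1A2, the retinoic acid synthesis enzyme, was the somatic list gene next in order after the antigen presentation gene b2m, at rank 28 (1174 ± 114 CPM). The matrix metalloproteinase gene MMP9 (1326 ± 416 CPM) and the copy ENSDARG00000075261 of its inhibitor family gene TIMP2 (1463 ± 483 CPM) were also among the first 20.

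**Figure D1:**
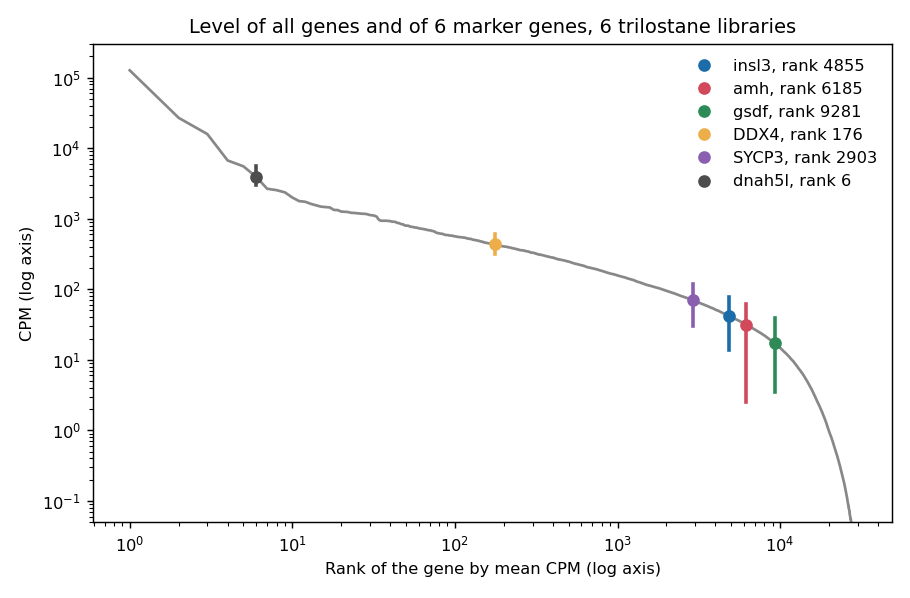
Level of every gene with a count (grey line: mean CPM over the 6 libraries, log axis) against its rank by mean CPM (log axis). Points are the means of the 6 marker genes and vertical lines run from their lowest to their highest library; dnah5l lies at rank 6 and DDX4 at rank 176, whereas SYCP3, insl3, amh and gsdf lie between ranks 2903 and 9281.

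Germ cell genes stood higher in this order than somatic ones. Of 122 IDs in the 5 germ cell lists, 57 had a mean of at least 100 CPM and the median was 73.1 CPM. Of 142 IDs in the 6 somatic lists, 20 reached 100 CPM and the median was 12.7 CPM. Over all gene IDs, 5.56% reached 100 CPM and the median was 2.61 CPM. Among the 100 most abundant genes, 10 were on a germ cell list and 4 on a somatic one. The lists were drawn from known genes, so these counts describe the lists and not the cells.

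Summed over the lists, germ cell genes had 26416 ± 3470 CPM and somatic genes 9894 ± 1352 CPM (SD, n = 6). The ratio of the sums was 2.92, 1.70, 3.09, 3.03, 3.12 and 2.5 in libraries 1 to 6. It was thus above 1 in all 6 libraries, with library 2 the lowest, and its mean on the log2 scale was 1.42 ± 0.34. Without library 2 the mean was 1.55, and without library 3 it was 1.37. The axoneme and sperm tail list made up much of the germ cell sum. In library 2 it gave 11324 of the 21228 CPM. The other germ cell lists together stayed below the 12479 CPM of the somatic lists in that library.

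Genes of the axoneme and sperm tail were the largest germ cell group, with 29 of 39 IDs at or above 100 CPM and a summed level of 14828 ± 3019 CPM (SD, n = 6), or 13788 ± 1812 CPM without library 3 (SD, n = 5). They were the highest in library 3: of the 36 members kept for testing, 29 had their highest value there, against 20.6% of all genes tested. Under scaling by library totals alone the number was 21 of 36, and the share of all genes under that scaling was not computed. Library 2 held the lowest value of 20 of the 36 members, against 18.6% of all genes tested. Hydin had a lowest value of 949 CPM, in library 2, a median of 1192 CPM and a highest value of 1860 CPM, in library 3. Its biological CV, which is the spread between libraries over the mean after the counting variance is taken off, was 0.259 with and 0.127 without library 3. For dnah5l the corresponding values were 0.244 and 0.159. Members that did not follow library 3 included the dynein heavy chain gene DNAH2, which was highest in library 4 at 1165 CPM and was at 886 CPM in library 3. The dynein assembly factor gene dnaaf3 was absent from library 2 (0 counts, floor 0.252 CPM) and had between 34.3 and 64.0 CPM in the other 5.

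Germ granule and piRNA genes showed the reverse order in library 3. Of 20 members tested, 15 were lowest in library 3, against 23.3% of all genes tested, 9 were highest in library 1, against 15.2%, and 7 were highest in library 6, against 19.7%. PIWIL1 ranged from 891 CPM in library 3 to 1437 CPM in library 1, with a median of 1243 CPM. TDRD6, a scaffold protein of germ granules, ranged from 614 CPM in library 3 to 1092 CPM in library 1. The RNA-binding protein gene DAZL, needed for germ cell development, ran from 107 CPM in library 3 to 224 CPM in library 1. DDX4 was also lowest in library 3 and highest in library 1, and all 20 members varied beyond counting noise (chi-square test against Poisson counts, adjusted p under 0.05), as did 77.8% of all genes tested. Without library 3 the CV of PIWIL1 went from 0.177 to 0.128, that of TDRD6 from 0.179 to 0.122, that of DAZL from 0.254 to 0.187 and that of DDX4 from 0.259 to 0.234. The summed level of the list was 4941 ± 791 CPM over 6 libraries and 5185 ± 576 CPM without library 3 (SD, n = 5). Several members did not share the pattern. The small zinc finger gene gtsf1 was lowest in library 2 at 137 CPM and had 193 CPM in library 3, below 210 CPM in library 6. TDRD3 was lowest in library 6 at 43.5 CPM, and its highest value, 67.0 CPM in library 3, was level with library 4. Tdrd7a was lowest in library 2, and TDRD7 and buc were lowest in library 6.

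Of 25 meiosis genes tested, 24 varied beyond counting noise (77.8% of all genes tested) and 18 beyond a CV of 0.1 (38.1% of all genes tested). SYCP1 and the telomere attachment gene terb1 were at 1777 ± 338 and 417 ± 74.4 CPM, and their CVs of 0.190 and 0.178 were near the median of 0.165 over all genes with a mean of at least 5 CPM. The cyclin gene CCNA1, active in male meiosis in mice, had a CV of 0.0876. SYCP3, the lateral element protein of the synaptonemal complex, had 29.7 CPM in library 6, a median of 65.8 CPM and 120 CPM in library 4. Libraries 1, 4 and 5 held its 3 highest values, 81.1, 120 and 98.4 CPM, and libraries 2, 3 and 6 held 39.3, 50.6 and 29.7 CPM. The meiotic cohesin gene rec8b gave the same order of these 3 libraries against the other 3, with 29.8, 57.5 and 41.6 CPM against 13.6, 13.8 and 10.2 CPM. MSH5, which stabilises recombination intermediates, had 12.3 CPM in library 6 and 114 CPM in library 4, but its 62.6 CPM in library 3 exceeded the 60.0 CPM of library 1. MEIOB, a single-strand DNA binding protein of meiosis, ranged from 13.7 CPM in library 6 to 38.9 CPM in library 4. Of 25 meiosis genes tested, 14 were highest in library 4, against 14.1% of all genes tested, and 11 were lowest in library 2, against 18.6%. Without library 6, 17 of the 25 were lowest in library 2, and the share of all genes without library 6 was not computed.

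Spermatid genes had a median CV of 0.213, against 0.231 for the meiosis genes, a difference that was not tested. GAPDHS, a sperm glycolysis gene in mammals, had 284 ± 22.4 CPM (SD, n = 6) and a CV of 0.076, and tsga10, a sperm tail protein, had 323 ± 62.6 CPM. TSSK6, a kinase of late spermatids, was the member with the largest spread, from 7.45 CPM in library 1 through a median of 12.8 CPM to 34.3 CPM in library 3. Its CV was 0.573, and 0.392 without library 3. Genes of undifferentiated spermatogonia were the lowest germ cell group: none of the 16 IDs reached 100 CPM and 5 reached 10 CPM. The stem cell transcription factor SALL4 had 37.3 ± 5.85 CPM, and the telomerase gene TERT 31.4 ± 5.45 CPM. Of the 11 tested, 6 were lowest in library 3, against 23.3% of all genes tested, among them TERT at 22.4 CPM, whose CV was 0.161 with and 0.0877 without that library. RET, the receptor component for the niche factor Gdnf in mammals, lay between 1.68 CPM in library 2 and 8.81 CPM in library 5.

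Of 18 Sertoli cell genes tested, 11 varied beyond a CV of 0.1, against 38.1% of all genes tested. FSHR, the receptor for Fsh, had 21.6 ± 2.54 CPM (SD, n = 6), with values from 17.0 CPM in library 3 to 24.7 CPM in library 1 and a CV of 0.0881, or 0 without library 3. ALDH1A2 had a CV of 0.0968. The testis transcription factor gene DMRT1 had 227 ± 46.2 CPM and a CV of 0.202. The copy ENSDARG00000003293 of SOX9, a Sertoli transcription factor, had 15.9 ± 2.96 CPM and a CV of 0.163, close to the median of all genes. The copy ENSDARG00000043923 had 3.17 ± 0.817 CPM.

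The growth factor genes amh and gsdf were the 2 Sertoli list members with a CV of at least 0.5 at a mean of at least 5 CPM. Amh, which restrains germ cell differentiation in the zebrafish testis, had 62.1, 36.1, 2.51, 24.5, 32.4 and 32.1 CPM in libraries 1 to 6. Library 3 was about an order of magnitude below the next lowest library. The CV of amh was 0.605, and 0.381 without library 3. The TGF-beta family gene gsdf had 18.7, 39.5, 3.52, 4.43, 5.24 and 30.8 CPM in libraries 1 to 6, so libraries 3, 4 and 5 were the lowest. Its CV was 0.897, and 0.780 without library 3. The inhibin subunit gene inha, named after its values were seen, ranged from 0.894 CPM in library 5 through a median of 3.47 CPM to 12.0 CPM in library 6. The germ cell growth factor gene igf3 stayed between 0.425 and 2.56 CPM and GDNF between 0.128 and 2.51 CPM, both near the floor.

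Leydig cell genes had the second widest spread of the list sums, after the liver, pancreas and muscle list. The summed level was 287 ± 107 CPM (SD, n = 6), with a lowest value of 186 CPM in library 5, a median of 258 CPM and a highest value of 461 CPM in library 6. Insl3 was at 13.6 CPM in library 1, had a median of 39.7 CPM and reached 77.1 CPM in library 6. STAR, which delivers cholesterol to the mitochondria, ranged from 15.8 CPM in library 2 to 76.7 CPM in library 6, with 42.5 CPM as its next highest value. The trilostane target gene hsd3b1 ranged from 11.6 CPM in library 5 to 57.8 CPM in library 6. HSD11B2, an enzyme that in zebrafish takes part in making 11-ketotestosterone, had 49.8 CPM in library 6 and 3.96 to 18.4 CPM in the other 5.

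Of 15 Leydig list members tested, 7 were highest in library 6, against 19.7% of all genes tested. The androgen synthesis gene CYP17A1 was highest in library 4 at 22.1 CPM, just above the 21.5 CPM of library 6, and the receptor gene lhcgr was lowest in library 6 at 4.93 CPM. HSD17B3, which makes testosterone in mammals, stayed between 2.17 and 3.19 CPM. Since no tissue without trilostane was used, the levels of these genes cannot be set against an unblocked state.

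**Figure D2:**
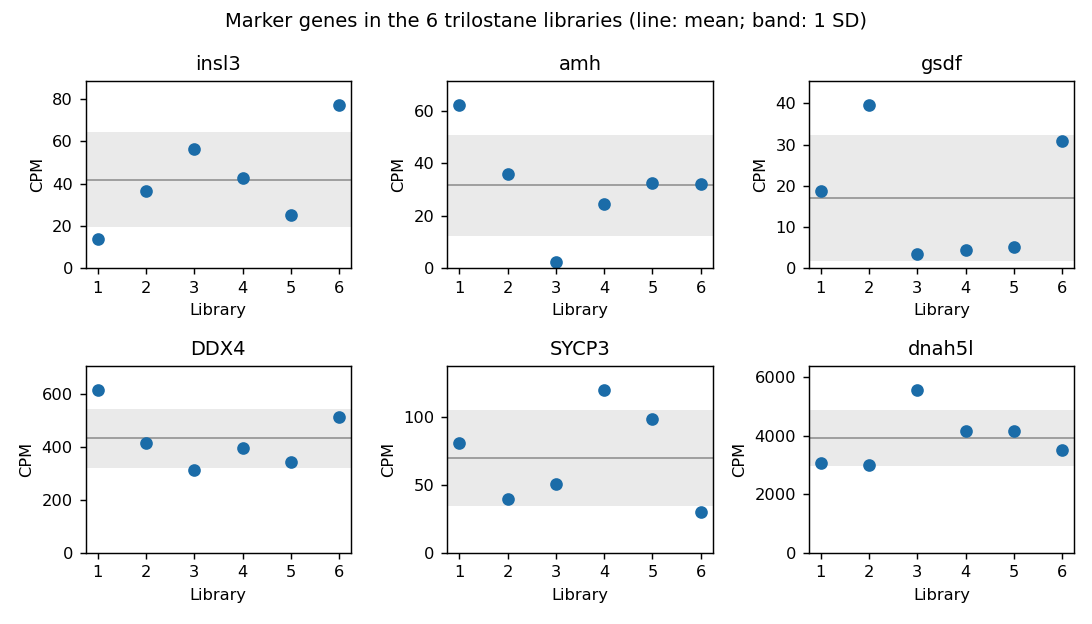
CPM of the 6 marker genes in libraries 1 to 6 (points), with the mean (line) and 1 SD to each side (band, cut at 0); each panel has its own axis from 0. Library 3 is lowest for amh, gsdf and DDX4 and highest for dnah5l, library 6 is highest for insl3 and library 4 for SYCP3.

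Over the 6 markers, 15 pairs were correlated across the 6 libraries on log2(CPM + 0.5), and none passed Benjamini-Hochberg adjustment at 0.05. The smallest p that the exact permutation test can give with 6 libraries is 0.00139. A single pair could thus pass only near that limit, and the lack of a passing pair says little about the markers. The smallest p was that of amh and dnah5l: Pearson's r was -0.88 (exact permutation p = 0.0111, adjusted 0.167) and Spearman's rho was -0.77 (exact permutation p = 0.103, adjusted 0.292). Without the 2 libraries farthest from the median of amh, r was -0.71. Library 3 was the lowest for amh and the highest for dnah5l, and r over the other 5 libraries was -0.80. Gsdf and dnah5l gave r = -0.87 (exact permutation p = 0.0333, adjusted 0.25) and rho = -0.89 (exact permutation p = 0.0333, adjusted 0.292), and r = -0.92 without the 2 libraries farthest from the median of gsdf. With scaling by library totals alone, the pair of amh and dnah5l gave r = -0.83 with an adjusted exact permutation p of 0.0208.

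Each marker was correlated with 11074 genes that had a symbol other than a clone name and a mean of at least 5 CPM. The gene most like amh was SAE1 (r = 0.999), and that most like dnah5l was L3MBTL3 (r = 0.997). Library 3 was the lowest for both amh (2.51 CPM) and SAE1 (14.5 CPM). It was the highest for both dnah5l (5555 CPM) and L3MBTL3 (131 CPM). These r were not computed without library 3. That most like SYCP3 was MCM8 (r = 0.996), a helicase gene of meiotic recombination. The most like DDX4 was THOC3 (r = 0.991), the most like insl3 was cxxc5b (r = 0.978) and the most like gsdf was RPL21 (r = 0.988). An r of at least 0.9 was reached by 303 genes with amh, 309 with SYCP3 and 151 with DDX4. For gsdf, dnah5l and insl3 the numbers were 137, 124 and 54. How many genes unrelated values over 6 libraries would give was not computed. The genes named are the best of 11074, and a link with the marker was not tested.

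The stromal and immune groups were highest in library 2. Of 24 peritubular and matrix genes tested, 14 were highest there, as were 12 of 21 leukocyte genes, 11 of 18 endothelial genes and 11 of 23 hypoxia and glycolysis genes, against 17.1% of all genes tested. The fibronectin copy ENSDARG00000019815 of FN1 had 1998 CPM in library 2 and 797 to 1260 CPM in the others. The other FN1 copy, ENSDARG00000006526, went the other way: it was lowest in library 2 at 358 CPM and highest in library 6 at 769 CPM. The type I collagen gene COL1A2 had 397 CPM in library 2, a median of 264 CPM and a lowest value of 179 CPM in library 5.

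Among endothelial genes, the VEGF receptor gene KDR ranged from 24.1 CPM in library 6 to 60.0 CPM in library 2, and 12 of the 18 members were lowest in library 6, against 20.2% of all genes tested. The macrophage gene MPEG1 (ENSDARG00000043093) was lowest in library 6 at 43.8 CPM, had a median of 112 CPM and was highest in library 3 at 175 CPM. The cytokine gene tnfa had 30.1 CPM in library 2 and 29.6 CPM in library 3, whereas the other 4 libraries had 2.56 to 6.00 CPM. The antigen presentation genes b2m (1175 ± 223 CPM; SD, n = 6) and cd74a (712 ± 152 CPM) were the most abundant leukocyte list genes, and neither is confined to leukocytes. Red blood cell genes were low, with a globin gene, hbaa2, at 8.70 ± 2.76 CPM.

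**Figure D3:**
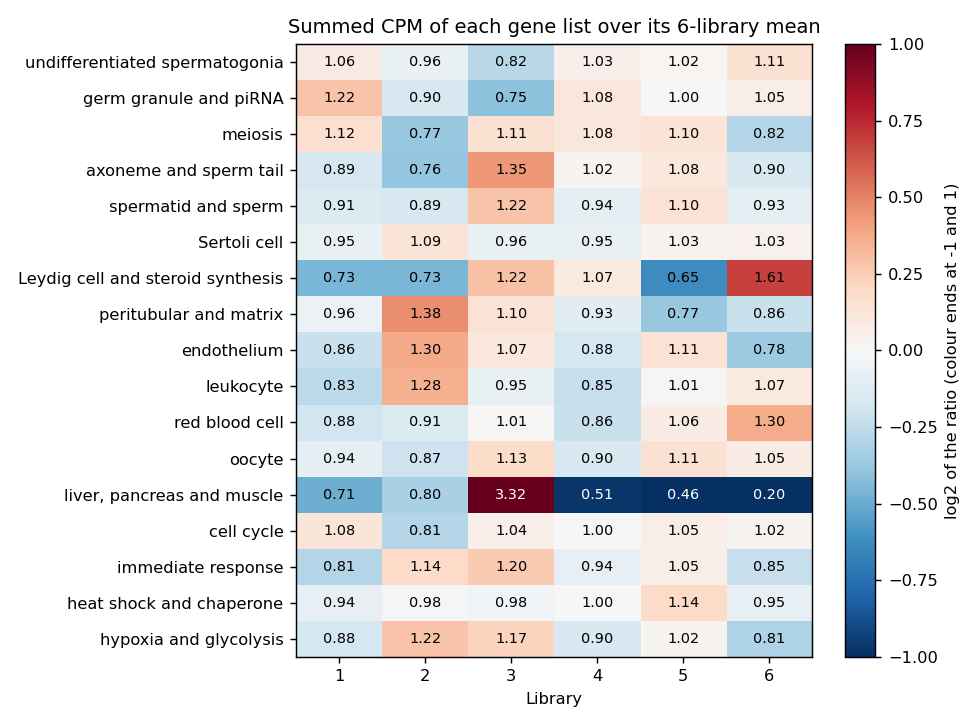
Summed CPM of each of 17 gene lists in libraries 1 to 6, divided by the mean of that list over the 6 libraries (numbers in the cells) and coloured by the log2 of that ratio. The liver, pancreas and muscle list stands at 3.32 in library 3 and the axoneme list at 1.35. The Leydig cell list stands at 1.61 in library 6 and the matrix list at 1.38 in library 2. The Sertoli cell list stays between 0.95 and 1.09, but ALDH1A2 gives 1174 of its mean of 2167 CPM. Members such as amh (2.51 to 62.1 CPM) and gsdf (3.52 to 39.5 CPM) hardly move that sum.

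Cell division and chaperone genes were abundant. The proliferation gene mki67 had 770 ± 192 CPM (SD, n = 6), with its lowest value, 524 CPM, in library 2 and its highest, 979 CPM, in library 1. FOXM1, a transcription factor of mitosis, had 643 ± 74.1 CPM. Of 29 cell cycle genes tested, 11 were highest in library 6 (19.7% of all genes tested) and 10 lowest in library 2 (18.6% of all genes tested). The replication helicase gene MCM3 was the exception in spread: libraries 1, 4 and 5 had 42.5, 34.5 and 22.7 CPM, and libraries 2, 3 and 6 had 8.58, 9.05 and 12.0 CPM, the same division of libraries as for SYCP3 and rec8b. HSP90AB1 was steady over libraries with a CV of 0.086, while the small heat shock protein gene HSPB1 ranged from 4.47 CPM in library 1 to 41.0 CPM in library 6. Of 30 immediate response genes tested, 14 were lowest in library 1, against 14.6% of all genes tested. FOSL2, a partner of Jun, had 111 CPM in library 1 and 241 CPM in library 2. The glycolysis gene GAPDH had 47.2 CPM in library 3 and 7.87 to 12.6 CPM in the other 5.

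Most genes varied by more than counting alone gives. Of 17109 genes with enough counts in all 6 libraries, 13317 (77.8%) departed from Poisson noise (chi-square test, Benjamini-Hochberg adjusted p under 0.05), and 6522 (38.1%) departed from a biological CV of 0.1. The common biological CV by edgeR was 0.243. Over the 14652 genes with a mean of at least 5 CPM, the median biological CV was 0.165, 683 genes (4.66%) reached 0.5 and 3301 (22.5%) were at or under 0.1. Germ cell list genes had a median CV of 0.219, with 5 of 106 at or above 0.5, and somatic list genes had a median CV of 0.287, with 10 of 87 at or above 0.5. Among tested genes the highest library was 1.70 times the lowest at the median, and 99 genes had a ratio of at least 10. The filter leaves out genes that are off in a library, such as itln3 (0.233 to 309 CPM), and the 99 does not count them.

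At the other end, 633 genes with a mean of at least 5 CPM had a CV of 0, so they cannot be ordered by it. The 12 named from these were those with the smallest SD over mean at a mean of at least 20 CPM, and they included the splicing genes puf60a (73.1 to 75.7 CPM), srsf2a (62.3 to 67.7 CPM) and LUC7L (47.8 to 51.9 CPM). The RNA helicase gene DDX42 (52.9 to 55.6 CPM) and FUBP1, a nucleic acid binding protein gene (186 to 197 CPM), were also among them. A CV of 0 says that the spread was no larger than counting gives.

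The 683 variable genes were read against the share of all genes with a mean of at least 5 CPM. Library 3 held the highest value of 229 of them (33.5%, against 21.7% of all such genes), library 2 of 154 (22.5% against 17.3%) and library 6 of 140 (20.5% against 17.8%). Each of libraries 1, 4 and 5 held the highest value of 53 or 54 (7.76 to 7.91%, against 13.9 to 15.1%). Library 1 held the lowest value of 161 (23.6% against 14.0%), library 4 of 122 (17.9% against 11.3%) and library 6 of 172 (25.2% against 21.5%). Library 5 held the lowest value of 84 (12.3% against 10.5%). Libraries 2 and 3 lay under the share of all such genes, with 62 (9.08% against 19.3%) and 82 (12.0% against 23.4%). The 12 genes with the largest CV at a mean of at least 20 CPM included 8 plasma protein and lectin genes whose highest value was in library 3, namely apobb.1, CP, hpxb, FGB, fga, cfb, itln3 and c3a.1. Without library 3, 617 genes had a CV of at least 0.5. Also among the 12 were the proteasome genes PSMB8 and psmb12 and the 5_8S_rRNA gene, which had 319 CPM in library 1 and 1.06 to 27.4 CPM in the others.

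**Figure D4:**
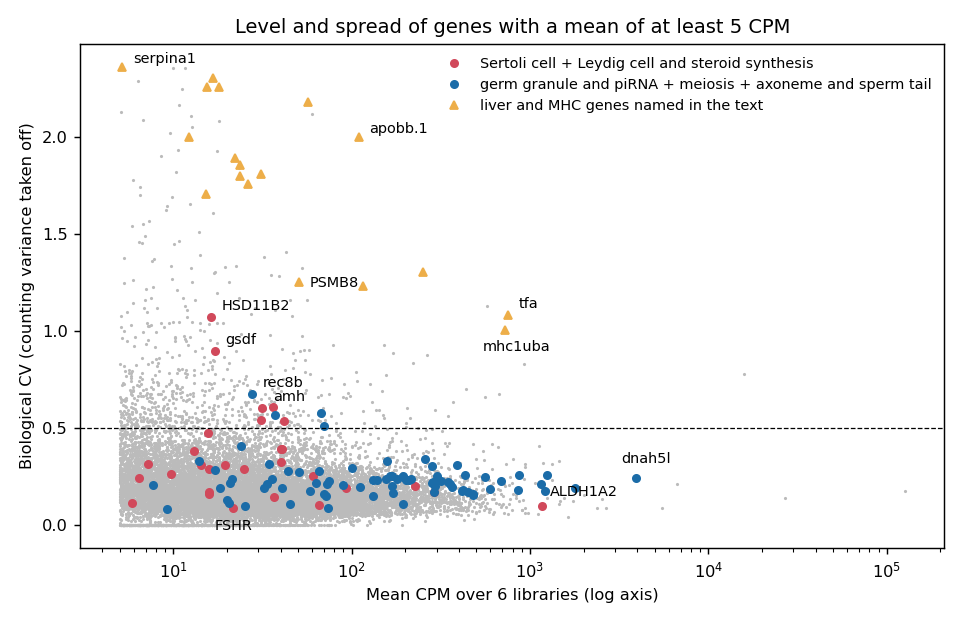
Biological CV of each gene with a mean of at least 5 CPM (grey points) against its mean CPM (log axis), with Sertoli and Leydig list genes in red, 3 germ cell lists in blue and liver and MHC genes as yellow triangles. The dashed line marks a CV of 0.5; FSHR and ALDH1A2 lie under 0.1, amh and gsdf above the line, and the liver genes reach 2.36 (serpina1).

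A smaller set of genes was close to absent in some libraries and clearly present in all others. With under 1 CPM as off and at least 5 CPM as on, 95 of 16210 genes (0.586%) had such a pattern. Of these, 37 were on in 1 library, 26 were off in 1 library and 32 divided the libraries otherwise. Library 3 was the only library on for 22 of them, among them serpina1, the liver lectin gene asgr1a and the apolipoprotein genes apoa4b.2 and apoa4b.3. Library 6 was the only library off for 15, among them cntrl and PPP1R37, each with 0 counts against at least 6.16 CPM elsewhere. Rarres3l met no such threshold in library 6 but had 1.17 CPM there and 207 to 292 CPM in the other 5.

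A further 6 genes were on only in libraries 2, 3 and 6, and 3 genes were on only in libraries 1, 4 and 5. PSMB8, a subunit of the immunoproteasome that cuts peptides for MHC class I, had 84.9, 62.1 and 156 CPM in libraries 2, 3 and 6, and 0.213, 0.117 and 0 CPM in libraries 1, 4 and 5. Psmb12 had 33.9, 24.4 and 64.3 CPM against 0.128 to 0.466 CPM, and psmb13a had 48.8, 47.4 and 74.5 CPM against 0.638 to 0.766 CPM. PSMB9 and the peptide transporter gene tap2a, both chosen after their values were seen, followed the same division but did not fall under 1 CPM in any library: tap2a had 85.4, 108 and 104 CPM against 5.01 to 7.15 CPM. In the RefSeq gene order, psmb13a and PSMB8 are neighbours within 20 protein-coding genes. Library 3 also had the liver genes described above, and the part of its other differences in these values was not tested. Reads of near-identical gene copies may be lost or divided by the counting.

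MHC genes themselves varied too. Class II genes mhc2daa and mhc2dab were also higher in libraries 2, 3 and 6, whereas the class I gene followed another division. The class I gene mhc1uba had 1755 and 1559 CPM in libraries 2 and 3 and 200 to 327 CPM in the other 4. The class II gene mhc2daa had 356 and 225 CPM in libraries 2 and 3, 52.9 CPM in library 6 and 17.6 to 23.0 CPM in libraries 1, 4 and 5. For mhc2dab the values were 424, 248 and 203 CPM in libraries 2, 3 and 6, against 47.8 to 51.5 CPM. In contrast b2m, the shared light chain of class I, had a CV of 0.189. The interferon response gene ifi44a7 had 0 counts in libraries 2 and 3 and 57.9 to 129 CPM in the other 4, while its neighbour ifi44a5 was on in libraries 2, 3 and 6. The NLR family gene nlrc11 and its neighbour si:ch211-181d7.1 were on in libraries 2 to 5 and off in libraries 1 and 6. Ccdc171 was on in libraries 1, 4 and 5, at 47.9 to 57.7 CPM, and had 0.251 to 0.47 CPM in libraries 2, 3 and 6. Ifit16 was off in library 3 (0.503 CPM) and had 34.3 to 48.5 CPM in the other 5.

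**Figure D5:**
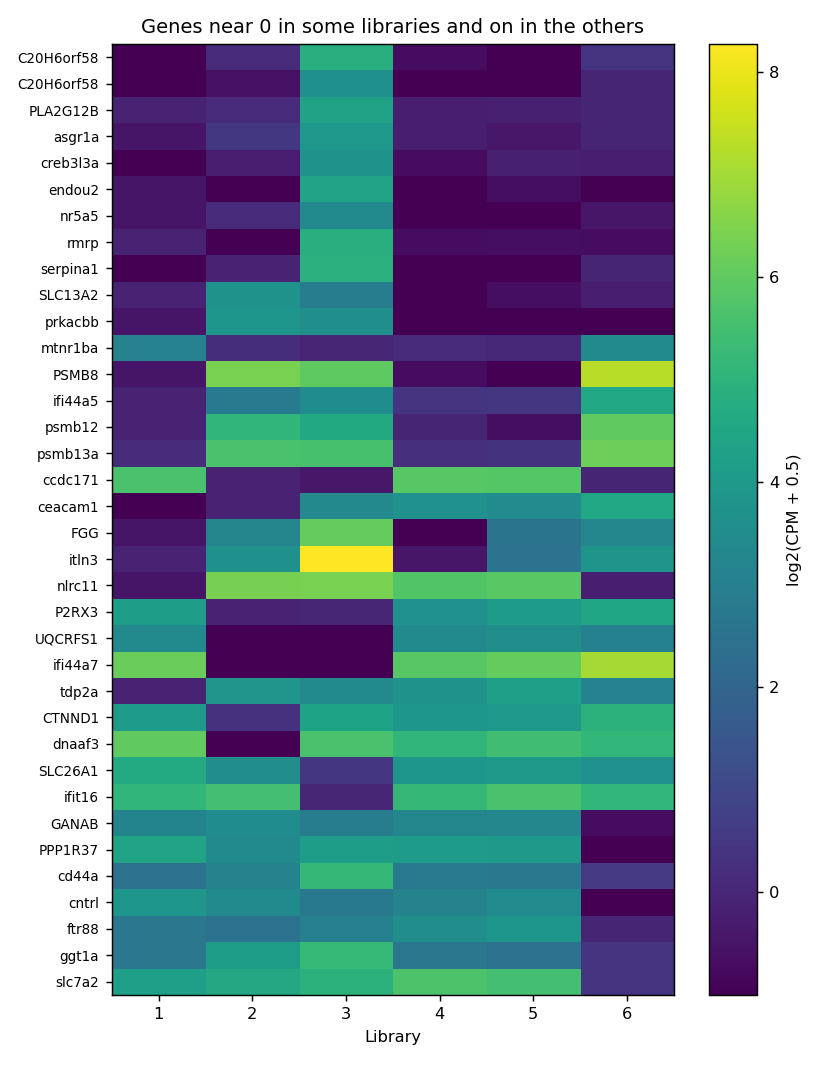
Level on log2(CPM + 0.5) of 36 named genes that were under 1 CPM in some libraries, at least 5 CPM in all others and at least 10 CPM in the highest, in libraries 1 to 6 (columns). PSMB8, psmb12 and psmb13a are on in libraries 2, 3 and 6, ccdc171 in libraries 1, 4 and 5, and serpina1 in library 3.

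Pairs of whole libraries were also compared. Libraries 4 and 5 were the most alike, with r = 0.986 across genes on log2(CPM + 0.5), and libraries 3 and 6 the least, with r = 0.926. Genes are not independent replicates, and these values describe the pairs. Even libraries 4 and 5 differed by more than counting noise, with a chi-square of 6.22 per degree of freedom, so no library was a second deposit of another. All other pairs had at least 16.9. Whether libraries 4 and 5 shared tissue cannot be told from these values, since separate preparations of the same tissue can also differ by more than counting. The first principal component, 35.4% of the variance over 19908 genes, set libraries 2 and 3 (scores 35.4 and 55.4) apart from libraries 1, 4 and 5 (-32.9, -37.9 and -30.0), with library 6 between them at 9.95. On the second component, 28.0% of the variance, library 6 stood at 67.0, and the other 5 lay between -32.3 and 1.83.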

How the data were processed

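Total RNA of testis tissue was made into TruSeq RNA v2 libraries, per the labels' protocols. The deposited files hold whole-number counts of reads per Ensembl gene ID, made by the authors with CASAVA 1.8, STAR 2.3 and HTSeq on the build Zv9, per the submitters' processing notes. The labels do not state the counting options, and reads of overlapping genes or near-identical copies may be lost or divided. Depth was 4695095 to 11497588 counts per library. Floors (3 counts) cover counting error only. Chi-square p-values test whether these libraries depart from counting noise, and permutation p-values test the correlation of marker pairs across them.

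CPM were computed with TMM factors (edgeR 4.0.16, R 4.3.3). Genes kept by filterByExpr in 1 group of 6 (enough counts in every library, 17109) were tested against Poisson noise with Benjamini-Hochberg adjustment at 0.05. This filter leaves out genes that are off in a library. Biological CV was taken at a mean of at least 5 CPM. Correlations used exact permutation. The counting-noise test and the biological CV were tested on simulated counts, and the other steps were not. Gene symbols came from a table of gene names, and 383 of 520 list entries matched. Neighbouring genes came from RefSeq's gene order by symbol, without coordinates. No sequences are printed.

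Members, gene lists and tests were chosen with earlier results of these data known. The genes named were the 6 markers, the 20 highest means, in each list the 2 highest means and the largest and smallest CV at a mean of at least 5 CPM, the 12 largest and 12 smallest CV at a mean of at least 20 CPM (ties at 0 by SD over mean), the 10 largest loadings of each sign on both components, and the 3 genes most like each marker. Other genes were named from the lists or after their values were seen. Alternatives were other scalings, filters and pseudocounts and each library left out, with DESeq2 1.42.0 for size factors. A few genes that these rules name are not reported here.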

Additional observations from a re-analysis of the deposited data

Results flagged for a closer look

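Of 152 results over the 6 libraries, 126 of them gene levels, 28 had a highest or lowest library that stood apart from the other 5 by Dixon's ratio at the 95% level. Chance gives about 1 such result in 20, and many of the genes examined were chosen for their spread.

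In library 3 the high values were those of ENSDARG00000080337 (172133 CPM, or 15.5% of the counts), STEAP4 (2409 CPM), GAPDH (47.2 CPM) and the liver genes. Among the liver genes, tfa had 2358 CPM, c3a.1 897 CPM, apobb.1 553 CPM and itln3 309 CPM. CP had 145 CPM, fga 119 CPM, hpxb 113 CPM, FGB 110 CPM, cfb 108 CPM and fabp10a 102 CPM. Serpina1 had 30.2 CPM, asgr1a 14.8 CPM, apoa4b.3 6.66 CPM and apoa4b.2 5.03 CPM. The summed liver, pancreas and muscle list stood at 2989 CPM. Low values of library 3 were those of SAE1 (14.5 CPM) and ifit16 (0.503 CPM).

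In library 6, HSD11B2 was high (49.8 CPM), rarres3l (1.17 CPM) and the elastase gene ela2 (2.82 CPM) were low, and the score on the second component was 67.0. Library 1 stood apart in 5_8S_rRNA (319 CPM), library 2 in the low sum of the cell cycle list (4631 CPM) and library 5 in the high sum of the heat shock list (8168 CPM).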

How the results depend on the processing

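Against a biological CV of 0.1 as the null, 6522 genes varied instead of 13317. The number of genes with a CV of at least 0.5 was 683 at a mean of at least 5 CPM, 1769 at a mean of at least 1 CPM and 4935 with no filter. Under scaling by library totals alone, 1 marker pair passed the adjustment (amh and dnah5l, r = -0.83) instead of 0. The number of genes on in some libraries and off in others was 95, and 37 when at least 10 CPM was asked where on, an alternative chosen after seeing the data. Under scaling by library totals, 7 instead of 11 of 30 immediate response genes were highest in library 3. The share of all genes tested was 20.6% in the main scaling and was not computed under library totals.

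Leaving out each library in turn gave 12012 to 13258 genes beyond noise and 585 to 794 with a CV of at least 0.5. Between 11736 and 11896 genes had a mean of at least 10 CPM, and the top 10 genes held 18.8 to 19.7% of counts. The log2 germ to somatic ratio was 1.37 to 1.55, and 84 to 107 genes were on/off. No marker pair passed, but with a library left out the exact permutation test has too few orderings for a single pair to pass. No paired analysis was possible because 1 group was used. CPM per kilobase could not be run, since no transcript lengths were used here.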

Other observations

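The recombinase genes RAG1 and RAG2, which act together in lymphocytes to assemble antigen receptors, differed in level. RAG2 had 132 ± 29.2 CPM (SD, n = 6), with a lowest value of 84.7 CPM, a median of 134 CPM and a highest value of 170 CPM. RAG1 had a lowest value of 0.583 CPM, a median of 1.22 CPM and a highest value of 3.2 CPM. The lymphocyte genes cd79a and ZAP70 were at 1.2 ± 1.06 and 7.04 ± 3.12 CPM. These genes were chosen after their values were seen, and whether reads of an overlapping gene were counted for RAG2 was not tested.

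Prostaglandin synthase and ferrireductase genes shared a pattern of high values in libraries 2 and 3. The PTGS2 copy ENSDARG00000010276 had 72.5 and 84.5 CPM there and 9.79 to 19.8 CPM in the other 4. The more abundant copy ENSDARG00000004539 was less clearly divided, with 118 and 212 CPM there and 20.3 to 88.0 CPM in the other 4. STEAP4 had 1102 and 2409 CPM there and 434 to 581 CPM in the other 4, which placed it at rank 40. Its CV was 0.830, and 0.434 without library 3. The shear stress transcription factor gene klf2b had 42.3 and 25.3 CPM in these libraries and 6.77 to 10.2 CPM in the others.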
